A study of Homo sapiens with 6 samples.

Results

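The 10 genes described here encode the protein-folding and protein-degrading machinery of mitochondria. They are HSPD1, HSPE1, HSPA9 and TRAP1, which encode chaperones, and LONP1, CLPP, CLPX, YME1L1, OMA1 and AFG3L2, which encode proteases or their partner subunits. They were picked by gene symbol as members of the mitochondrial unfolded protein response, with no threshold on their values, and all 10 were found among the 17631 genes listed for each library. RNA-seq had been carried out on MDA-MB-231, an established human line of triple-negative breast cancer grown in culture, in 6 libraries. The vehicle group (n = 3) received the carrier alone (the study's methods give distilled water as the solvent of its peptides in cell experiments), and the PDBAG1 group (n = 3) received 30 µM of the peptide PDBAG1, both for 24 h. PDBAG1 is an engineered peptide in which a cell-penetrating segment is joined to a fragment of the metabolic enzyme GPD1, and the study describes it as binding C1QBP, a protein found mainly in mitochondria. One cell line, one dose and one time were measured, and nothing says whether the 3 libraries of a group came from separate cultures, so p values may reflect technical spread alone.

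Most mitochondrial proteins are made in the cytosol, threaded through the 2 membranes as unfolded chains and folded inside. HSPA9 (mortalin, an HSP70) pulls the chain into the matrix, and the HSPD1 barrel (HSP60) with its HSPE1 lid (HSP10) then folds many of the arrivals. Chains that fail to fold are cut by LONP1 and by the CLPX-CLPP complex in the matrix, and by YME1L1 and AFG3L2 in the inner membrane, where OMA1 acts as a stress-activated peptidase. When misfolded proteins pile up, mammalian cells can raise transcripts of these chaperones and proteases together, a programme called the mitochondrial unfolded protein response, for which ATF5, ATF4 and DDIT3 (CHOP) have been described as transcription factors.

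Levels are given as the deposited TPM, a share of all transcripts corrected for transcript length, so that different genes can be compared but the sequencing depth is unknown. Group values are the mean ± SD of n = 3 libraries throughout, and log2 changes compare PDBAG1 with vehicle as fitted by limma on the log2(TPM + 1) scale, with their standard error (SE) and adjusted p. Between 12392 and 12611 genes per library reached 1 TPM. Of the markers of the line, VIM was at 4174 TPM or more in every library and CD44, MSN, AXL and KRT18 at 309 TPM or more. They differed between the groups. VIM, CD44 and MSN were called higher with PDBAG1 (limma log2 change 0.46, 0.59 and 0.45) and AXL and KRT18 lower (-0.26 and -0.21). PGR was at 0.06 TPM or less and CDH1 at 0.84 TPM or less. Of the other receptor genes that define triple-negative tumours, ESR1 was at 1.96 to 3.38 TPM and ERBB2 at 23.6 to 25.4 TPM. Of 5 markers of other cell types, 4 were listed and none of their values was 0. PTPRC (leukocytes) and ADIPOQ (adipocytes) lay at 1.41 TPM or less, PECAM1 (endothelium) was at 3.78 to 4.08 TPM with vehicle and 7.87 to 9.15 TPM with PDBAG1, and CD68 (macrophages) was at 251 to 264 TPM and 306 to 329 TPM. The summed level of these markers, mostly CD68, was 256 to 269 TPM with vehicle and 316 to 338 TPM with PDBAG1. The part of these markers in the results was not tested. C1QBP itself changed from 521 ± 7.55 to 418 ± 11.8 TPM (limma log2 change -0.32, adjusted p = 1.39e-05). The study, which measured this mRNA by qPCR after 24 h, describes the transcript as unaffected and the protein as reduced. The reason for the difference was not tested.

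The folding chaperones fell with PDBAG1 and LONP1 rose. Of the 10 genes, 5 were lower (HSPE1, HSPD1, TRAP1, HSPA9 and AFG3L2) and 1 was higher (LONP1) at a limma adjusted p under 0.05, and CLPP, CLPX, YME1L1 and OMA1 did not pass. Over the 12582 genes tested, 37.6% were called in either direction, 15.9% lower and 21.7% higher. The changes were small, between -0.30 and 0.29 on the log2 scale, so that none of the 10 reached the 1.5-fold limit the study applied. Of all genes tested, 3.34% reached that limit together with an adjusted p under 0.05. The median log2 fold change was -0.10 for the 10 genes and 0.03 for all genes tested. The 6 genes called were also those whose vehicle and PDBAG1 values did not overlap, which was so for 47.4% of all genes tested, 20.2% with PDBAG1 lower and 27.2% with PDBAG1 higher. In bulk RNA, fewer cells holding a transcript and less of it per cell cannot be told apart.

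**Figure D1:**
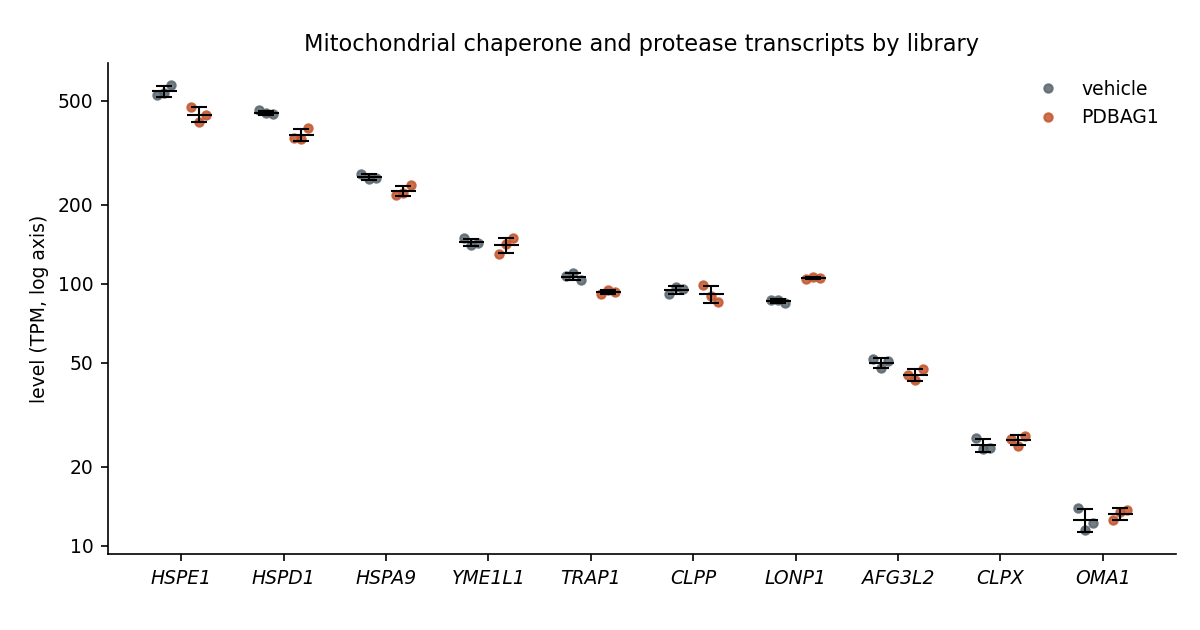
Level of each gene in each library (TPM, log axis), with points for the 3 vehicle (grey) and 3 PDBAG1 (orange) libraries, a horizontal mark at the mean and bars of 1 SD. The orange points of HSPE1, HSPD1, HSPA9, TRAP1 and AFG3L2 sit below all grey points, those of LONP1 sit above, and those of the other 4 genes overlap.

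**Figure D2:**
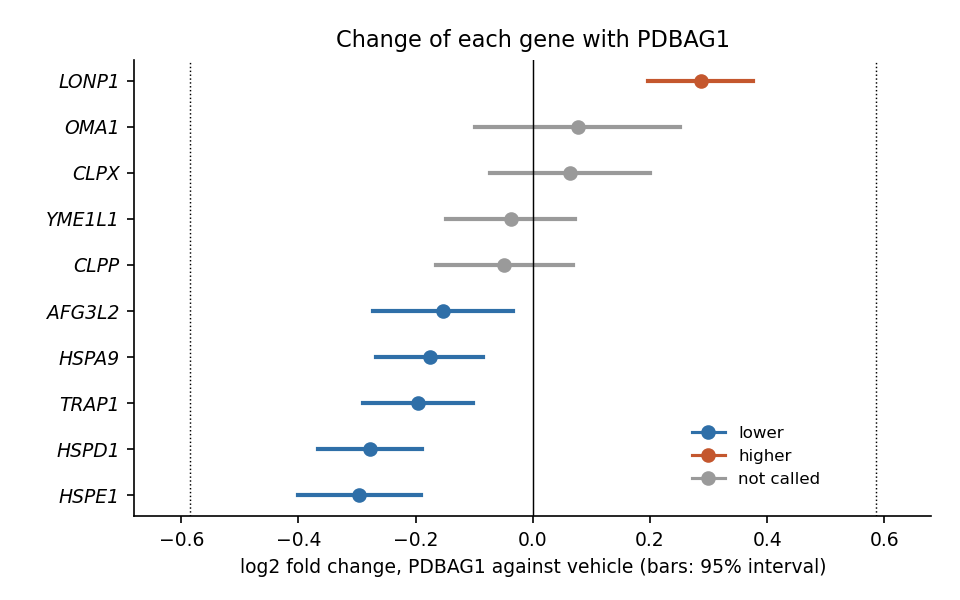
Log2 fold change of PDBAG1 against vehicle for each gene (points) with its 95% interval from limma (lines), where blue is lower and orange is higher at an adjusted p under 0.05, grey did not pass. The dotted lines mark a 1.5-fold change, which no interval reaches, and the intervals of the 4 grey genes all include 0.

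HSPD1 (ENSG00000144381, chromosome 2, 197486584 to 197516737, minus strand, GRCh38, GENCODE v44) encodes the HSP60 subunit of the folding barrel. Its level was 459, 447 and 444 TPM in the vehicle libraries and 361, 358 and 393 TPM in the PDBAG1 libraries. The highest PDBAG1 value thus stayed under the lowest vehicle value, and the group mean fell from 450 ± 8.13 to 371 ± 19.4 TPM (limma log2 change -0.28 with SE 0.04, adjusted p = 0.000155). The mean fell by 17.5%.

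HSPE1 (ENSG00000115541, chromosome 2, 197500140 to 197503449, plus strand), which encodes the HSP10 lid, was the most abundant of the 10 transcripts. Its values were 524, 533 and 572 TPM with vehicle and 472, 414 and 441 TPM with PDBAG1, again without overlap. The mean fell from 543 ± 25.6 to 442 ± 29.3 TPM (limma log2 change -0.30 with SE 0.05, adjusted p = 0.000361). The ratio of HSPE1 to HSPD1 within a library, which no scaling of whole libraries can change, was 1.14, 1.19 and 1.29 with vehicle and 1.31, 1.16 and 1.12 with PDBAG1. These overlapped (two-sided exact permutation p = 0.8, adjusted over 8 ratios 0.8, of which 3 were added after the data were seen), and with 3 libraries against 3 such a test cannot go below 0.1. At 557 bases the HSPE1 transcript was the shortest of the 10. After removal of trends with transcript length and GC content, a setting chosen after the data were seen, its log2 fold change was -0.16 and still called (limma adjusted p = 0.0271).

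The genes stand head to head, with RefSeq start sites of HSPE1 and of its nearest HSPD1 start 105 bases apart, and a second HSPD1 start 539 bases from that of HSPE1. Because they fell together, letters upstream of their starts are shown, from the RefSeq promoter table (GRCh38.p14). The first stretch lies upstream of both HSPE1 and the nearest HSPD1 start and is written along the plus strand (chr2:197500345-197500374). The second lies in the window of the second HSPD1 start and is written along the minus strand (chr2:197500061-197500090). It also lies upstream of HSPE1, but further from that start than the 250 bases searched. Capitals mark an E-box, CACGTG, in the first and a heat shock element in the second. The heat shock element searched was GAA, TTC and GAA in turn with any 2 bases between them, or its reverse complement, and 2 matches overlap in the letters shown.
HSPD1-HSPE1: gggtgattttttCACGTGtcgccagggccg
HSPD1: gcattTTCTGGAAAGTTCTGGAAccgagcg
Both stretches lie in exons of some GENCODE v44 transcripts of HSPE1 and HSPD1 but not of the canonical ones. An E-box was present in 6.34% and a heat shock element in 0.441% of the 35116 promoter windows (250 bases before a start, either strand). A match is a run of letters and says nothing of binding.

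Counts for this pair carry a limit. GENCODE v44 names 18 pseudogenes of HSPD1 and 26 of HSPE1, which can share reads with them. The submitters' processing notes name RSEM, a tool that divides shared reads among their possible sources by an estimate, so the levels of both genes may rest in part on such an estimate. HSPE1-MOB4, a readthrough transcript that starts in HSPE1, was at 3.29, 4.75 and 3.61 TPM with vehicle and was listed at 0, 5.80 and 0 TPM with PDBAG1. It missed the threshold (limma adjusted p = 0.0527) but passed with a pseudocount of 0.1, with a replicate block and without PDBAG1 replicate 2, the PDBAG1 library with a value above 0.

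HSPA9 (ENSG00000113013, chromosome 5, 138553756 to 138575675, minus strand) encodes mortalin, the motor of matrix import. Its values were 264, 251 and 254 TPM with vehicle and 219, 222 and 238 TPM with PDBAG1. The groups did not overlap, and the mean fell from 256 ± 6.70 to 227 ± 10.4 TPM (limma log2 change -0.18 with SE 0.04, adjusted p = 0.00511). An E-box lay just before its RefSeq start, as in the stretch shared by HSPD1 and HSPE1, and is shown here along the minus strand (chr5:138575403-138575432), in capitals.
HSPA9: cgcccctcacccCACGTGgttggaggtttc
This stretch lies in an exon of alternative HSPA9 transcripts.

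Among the helpers of HSPA9, DNAJA3 and DNAJC19 fell and GRPEL1 did not pass. GRPEL1, its nucleotide exchange factor, was at 55.9, 52.0 and 57.4 TPM with vehicle and 56.3, 54.5 and 54.3 TPM with PDBAG1, so the groups overlapped (limma log2 change 0.0004, 95% interval -0.11 to 0.11, adjusted p = 0.997). DNAJA3, an HSP40 that hands substrates to HSPA9, fell from 52.5 ± 0.458 to 43.6 ± 0.898 TPM (limma log2 change -0.26, adjusted p = 0.000868). DNAJC19, a J-protein of the inner membrane, fell from 52.0 ± 0.540 to 44.2 ± 0.825 TPM (limma log2 change -0.23, adjusted p = 0.00217). Of the 10 mitochondrial co-chaperones, which included GRPEL2, DNLZ, HSCB and CLPB, DNAJA3 and DNAJC19 were the 2 called, both lower. Among all genes tested, 15.9% were called lower. The list's median log2 fold change was -0.05. The ratio of GRPEL1 to HSPA9 within a library was 0.215 ± 0.00976 with vehicle and 0.243 ± 0.0146 with PDBAG1, with no overlap of the groups, at the smallest p the test allows (two-sided exact permutation p = 0.1, adjusted over 8 ratios 0.16).

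TRAP1 (ENSG00000126602, chromosome 16, 3651639 to 3717553, minus strand), the HSP90 of mitochondria, was at 107, 110 and 103 TPM with vehicle and 91.4, 94.4 and 92.7 TPM with PDBAG1. All PDBAG1 values were lower than all vehicle values, with means of 107 ± 3.37 and 92.9 ± 1.51 TPM (limma log2 change -0.20 with SE 0.04, adjusted p = 0.00308). Upstream of its RefSeq start, TRAP1 was the only one of the 8 genes with a promoter window to hold a cAMP-response element, TGACGTCA, which 1.65% of all windows held. The stretch is shown because TRAP1 fell as the other chaperones did but held no E-box in its window (chr16:3717555-3717654, minus strand, outside every GENCODE v44 exon, with the element in capitals).
TRAP1: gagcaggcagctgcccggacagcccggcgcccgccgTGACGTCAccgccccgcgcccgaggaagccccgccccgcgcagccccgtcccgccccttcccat

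LONP1 (ENSG00000196365, chromosome 19, 5691834 to 5720572, minus strand) encodes the ATP-dependent LON protease, which removes oxidised and misfolded proteins from the matrix. It was the one gene of the 10 that rose. Its values were 87.1, 86.5 and 84.6 TPM with vehicle and 104, 106 and 106 TPM with PDBAG1, so the groups lay far apart relative to their spread. The mean rose by 22.2%, from 86.1 ± 1.30 to 105 ± 0.991 TPM (limma log2 change 0.29 with SE 0.04, adjusted p = 0.000131). With trends of transcript length and GC content removed, chosen after the data were seen, the log2 fold change was 0.15 (limma adjusted p = 0.00295), so its size but not its call depended on that setting. The LONP1 transcript had the highest GC content of the 10, at 62.6%.

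The level of LONP1 was also set against those of the chaperones. The ratio of LONP1 to HSPD1 was 0.190, 0.193 and 0.191 with vehicle and 0.288, 0.296 and 0.268 with PDBAG1. The ratio to HSPA9 was 0.330, 0.345 and 0.333 with vehicle and 0.475, 0.476 and 0.442 with PDBAG1. All PDBAG1 ratios were above all vehicle ratios for both pairs, by 0.57 and 0.47 on the log2 scale between the groups. These pairs were chosen after the changes were seen, so the values are a description and their p values are not given. The ratio of YME1L1 to LONP1, also chosen afterwards, went the other way, from 1.68 ± 0.0447 to 1.34 ± 0.0815. The ratios chosen afterwards were nevertheless counted in the adjustment of the ratio p values. This can make the adjusted p of the pairs fixed with the design smaller than an adjustment over those pairs alone.

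**Figure D3:**
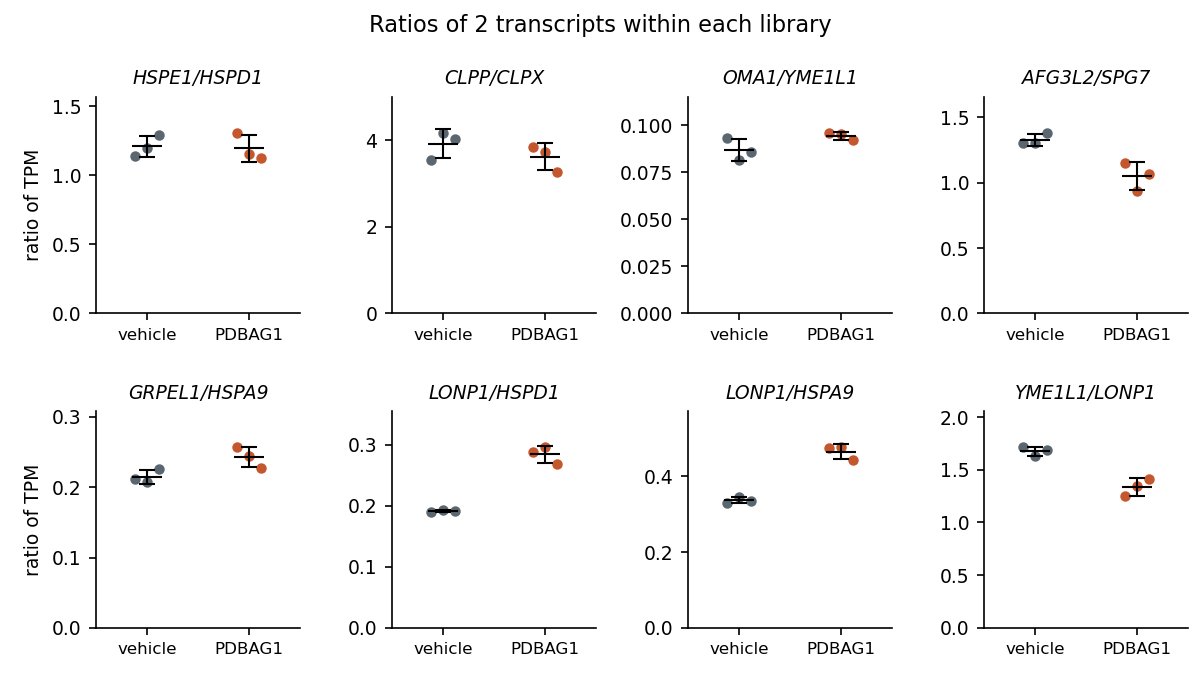
Ratio of the TPM of 2 genes within each library (vertical axes start at 0) for the 5 pairs fixed with the design and the 3 LONP1 pairs added later, with points for libraries, marks for the mean and bars of 1 SD (n = 3 per group). HSPE1/HSPD1, CLPP/CLPX and OMA1/YME1L1 overlap between groups and the other 5 pairs do not.

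LONP1 is shown with its upstream letters because it moved opposite to HSPD1, HSPE1 and HSPA9 and yet held the same E-box, once in the letters shown and once further upstream. It is in capitals in the first line (chr19:5720166-5720218, minus strand, outside every GENCODE v44 exon). The second line is upstream of another LONP1 start (chr19:5720633-5720662, minus strand, in an exon of the neighbouring gene CATSPERD), with an NRF1 element in capitals, found in 1.03% of all windows.
LONP1: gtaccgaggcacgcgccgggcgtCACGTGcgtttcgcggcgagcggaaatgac
LONP1 upstream start: ctgaagccctGCGCATGCGCatcaatgagt
An E-box was thus found for 4 of the 8 genes with a window, 3 that fell and 1 that rose. Among them, HSPD1 and HSPE1 share the same site. The 8 genes have 10 windows and are counted by gene, whereas the shares of all windows are counted by window, so the 2 are not directly comparable. The core of the hypoxia-response element, ACGTG or GCGTG, which overlaps the E-box, was found for 6 of the 8 and in 43.2% of all windows. The ATF4-CHOP composite element (TGATG, any base, then AA) and the CHOP element, TTGCAAT, were found in 3.14% and 1.69% of all windows and in none of the 10 windows of these genes, which says only that these letters were not in the 250 bases searched. CLPP and YME1L1 had no entry in the promoter table.

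The CLP protease did not pass the test in either subunit. CLPP (ENSG00000125656, chromosome 19, 6361531 to 6370242, plus strand), the serine peptidase barrel, was at 91.2, 97.4 and 95.2 TPM with vehicle and 98.8, 90.2 and 85.6 TPM with PDBAG1. Its groups overlapped, with both the highest and the lowest value in PDBAG1 libraries (limma log2 change -0.05, 95% interval -0.17 to 0.07, adjusted p = 0.510). CLPX (ENSG00000166855, chromosome 15, 65148219 to 65185342, minus strand), the unfoldase that feeds it, was at 25.7, 23.3 and 23.6 TPM with vehicle and 25.7, 24.1 and 26.3 TPM with PDBAG1 (limma log2 change 0.06, 95% interval -0.07 to 0.20, adjusted p = 0.455). The CLPP transcript was 3.92 ± 0.330 times as abundant as that of CLPX with vehicle and 3.61 ± 0.314 times with PDBAG1, and the groups overlapped (two-sided exact permutation p = 0.4, adjusted over 8 ratios 0.457). Both intervals left out a change the size of that of LONP1, 0.29.

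In the inner membrane, YME1L1 (ENSG00000136758, chromosome 10, 27110111 to 27155266, minus strand), the i-AAA protease facing the intermembrane space, was at 149, 141 and 143 TPM with vehicle and 130, 142 and 149 TPM with PDBAG1. The PDBAG1 values enclosed those of the vehicle group (limma log2 change -0.04, 95% interval -0.15 to 0.07, adjusted p = 0.593). OMA1 (ENSG00000162600, chromosome 1, 58415384 to 58546802, minus strand), which cuts OPA1 and DELE1 when the membrane potential drops, was the least abundant of the 10. Its values were 13.9, 11.5 and 12.2 TPM with vehicle and 12.5, 13.5 and 13.7 TPM with PDBAG1, and the groups overlapped (limma log2 change 0.08, 95% interval -0.10 to 0.25, adjusted p = 0.488). The ratio of OMA1 to YME1L1 was 0.0869 ± 0.00587 with vehicle and 0.0943 ± 0.00211 with PDBAG1, and its groups overlapped too (two-sided exact permutation p = 0.2, adjusted over 8 ratios 0.267).

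AFG3L2 (ENSG00000141385, chromosome 18, 12328944 to 12377227, minus strand) forms the m-AAA protease facing the matrix, alone or with SPG7. It was at 51.7, 47.6 and 50.8 TPM with vehicle and 44.8, 42.8 and 47.2 TPM with PDBAG1, so the groups were separate by a narrow margin. The mean fell by 10.2% (limma log2 change -0.15 with SE 0.06, adjusted p = 0.0442). This call was lost in 7 of 13 alternatives: without vehicle replicate 1 (log2 fold change -0.13, limma adjusted p = 0.119), without vehicle replicate 3 (-0.14, 0.139), without PDBAG1 replicate 1 (-0.15, 0.0683), without PDBAG1 replicate 2 (-0.12, 0.184), with a replicate block (limma adjusted p = 0.0829), with no expression filter (0.0679) and with no variance trend (0.0833). SPG7 was at 39.8, 36.5 and 36.8 TPM with vehicle and 38.8, 45.7 and 44.3 TPM with PDBAG1. It was called higher (limma log2 change 0.18, adjusted p = 0.0432), but its groups overlapped and the call was lost in 10 of 13 alternatives, with log2 fold changes down to 0.08. The ratio of AFG3L2 to SPG7 was 1.30, 1.30 and 1.38 with vehicle and 1.15, 0.937 and 1.07 with PDBAG1, which did not overlap (two-sided exact permutation p = 0.1, the smallest possible, adjusted over 8 ratios 0.16).

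Around these proteases, most scaffolds and substrates fell. Of 10 such genes, 8 were lower (7 in 10 of 13 alternatives) and 2 did not pass, with a median log2 fold change of -0.22. The share called lower among all genes tested was 15.9%. PHB2, a prohibitin of the ring that holds the m-AAA protease, fell from 434 ± 10.1 to 366 ± 8.34 TPM (limma log2 change -0.24, adjusted p = 0.000158). PGAM5, a phosphatase cut by PARL and OMA1, fell most, from 65.9 ± 1.62 to 51.1 ± 3.05 TPM (limma log2 change -0.36, adjusted p = 0.00015). STARD7, a lipid carrier processed by PARL, fell by 0.26 on the log2 scale. The 2 substrates best known for OMA1 did not pass. OPA1, the fusion GTPase, was at 57.1 ± 2.52 and 57.4 ± 5.05 TPM (limma log2 change 0.01, 95% interval -0.13 to 0.14), and DELE1, the relay to the integrated stress response, was at 33.9 ± 3.15 and 33.0 ± 1.96 TPM (limma log2 change -0.03, 95% interval -0.18 to 0.12).

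Among 13 other mitochondrial proteases and peptidases, 4 were lower, 2 were higher and 7 did not pass, with a median log2 fold change of -0.002. The share called in either direction among all genes tested was 37.6%. HTRA2, a serine protease of the intermembrane space, rose like LONP1, from 36.8 ± 0.713 to 42.8 ± 2.08 TPM (limma log2 change 0.21, adjusted p = 0.00729), though without PDBAG1 replicate 2 it missed the threshold (log2 fold change 0.18, limma adjusted p = 0.0517). IMMP2L and IMMP1L, the catalytic subunits of the inner membrane peptidase, fell by 0.41 and 0.29 on the log2 scale. METAP1D, which trims the first methionine, fell by 0.24 on the log2 scale. The groups of IMMP1L overlapped, and the calls of IMMP1L and METAP1D were each lost in 6 of 13 alternatives, among them those without vehicle replicate 3 and without PDBAG1 replicate 2. The 6 calls of this list became 2 without PDBAG1 replicate 2, 3 without vehicle replicate 3 and 3 with no expression filter.

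Ranked by level, the vehicle libraries ran HSPE1, HSPD1, HSPA9, YME1L1, TRAP1, CLPP, LONP1, AFG3L2, CLPX and OMA1, and no 2 neighbours overlapped. With PDBAG1, LONP1 moved from place 7 to place 5, above TRAP1 and CLPP, which now overlapped each other, and the rest of the order was kept. HSPE1 and HSPD1 lay at the 97.9 and 97.3 percentile of the levels of all genes tested, and OMA1 at the 36.3 percentile. Summed over HSPD1, HSPE1, HSPA9 and TRAP1, the level was 1353, 1341 and 1373 TPM with vehicle and 1144, 1089 and 1166 TPM with PDBAG1, so that the mean fell by 16.4%. Summed over the other 6 genes it was 419, 407 and 409 TPM with vehicle and 416, 419 and 428 TPM with PDBAG1, which overlapped, at a mean 2.24% higher.

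The transcription factors and markers linked to mitochondrial stress moved in different directions. Of 16 genes fixed, 15 were tested, and 6 were higher, 1 was lower and 8 did not pass, with a median log2 fold change of 0.08. In the alternatives 6 to 8 were called. Among all genes tested, 37.6% were called, 15.9% lower and 21.7% higher, so the count alone does not set this list apart. ATF5, the factor most directly tied to the mitochondrial unfolded protein response, was the gene that was lower, from 28.1 ± 0.398 to 24.3 ± 1.10 TPM (limma log2 change -0.20, adjusted p = 0.0167), a call lost with a replicate block (limma adjusted p = 0.0525), without vehicle replicate 3 (0.0702) and without PDBAG1 replicate 2 (0.0952). ATF4 was called higher, from 518 ± 15.8 to 567 ± 5.91 TPM (limma log2 change 0.13, adjusted p = 0.0103), and missed the threshold under median-of-ratios scaling (log2 fold change 0.09, limma adjusted p = 0.215) and with no variance trend (limma adjusted p = 0.0771). DDIT3 was at 69.6 ± 2.96 and 67.8 ± 0.652 TPM (limma log2 change -0.04, 95% interval -0.14 to 0.06, adjusted p = 0.561). The largest rises of the list were those of CEBPB, a partner of DDIT3, from 90.7 ± 5.61 to 161 ± 10.7 TPM, of GDF15, a secreted stress cytokine, from 21.99 ± 1.34 to 33.99 ± 3.25 TPM, and of SESN2, a stress-induced inhibitor of mTORC1, from 6.67 ± 0.451 to 9.36 ± 0.755 TPM. CEBPB and GDF15 were the 2 of the list to pass the 1.5-fold limit, CEBPB in 13 of 13 alternatives. GDF15 kept its call but lay under that limit in 6 of 13, with log2 fold changes of 0.54 to 0.58: without vehicle replicate 1, without vehicle replicate 3, without PDBAG1 replicate 1, under median-of-ratios scaling, with quantile normalization and with length and GC trends removed.

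Chaperones of other compartments were also measured. For comparison with the counts that follow, 15.9% of all genes tested were called lower and 21.7% higher. All 8 subunits of the cytosolic chaperonin, the relative of HSPD1 that folds actin and tubulin, were lower, with a median log2 fold change of -0.22, led by CCT2 with -0.30, though 7 and not 8 were called in 10 of 13 alternatives. Of 18 cytosolic chaperones, 8 were lower and 1 was higher, with a median of -0.10, and 6 to 10 were called in the alternatives. HSPA8, the constitutive HSP70, fell from 2566 ± 47.1 to 2153 ± 58.2 TPM (limma log2 change -0.25, adjusted p = 4.62e-05), DNAJA1 fell by 0.27 on the log2 scale, and BAG3 was the gene that was higher (log2 fold change 0.15), a call lost without vehicle replicate 3 (limma adjusted p = 0.0586), without PDBAG1 replicate 2 (0.0592), under median-of-ratios scaling (0.0908) and with length and GC trends removed (0.102). Of 14 chaperones of the endoplasmic reticulum, 6 were higher and 8 did not pass, with a median of 0.10, and 4 to 8 were called in the alternatives. Those higher included DNAJB9 with 0.32, DNAJC3 with 0.24 and MANF with 0.22. The call of DNAJC3 was lost without vehicle replicate 2 (limma adjusted p = 0.0600) and without vehicle replicate 3 (0.0579). The mitochondrial import machinery, a list not limited to the partners of HSPA9, had the lowest median of the lists, -0.27. Of its 20 genes, 18 were lower (16 to 18 called in the alternatives). Its largest falls were those of TIMM8A with -0.45, TOMM5 with -0.42 and CHCHD4 with -0.42. Whether the lists differ from one another was not tested.

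Across the settings tried, HSPD1, HSPE1, HSPA9, TRAP1 and LONP1 kept direction and call in 13 of 13 alternatives, and CLPP, CLPX, YME1L1 and OMA1 passed in none. The log2 fold change ranged from -0.32 to -0.24 for HSPD1, from -0.34 to -0.16 for HSPE1, from -0.22 to -0.15 for HSPA9, from -0.26 to -0.17 for TRAP1 and from 0.15 to 0.30 for LONP1.

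**Figure D4:**
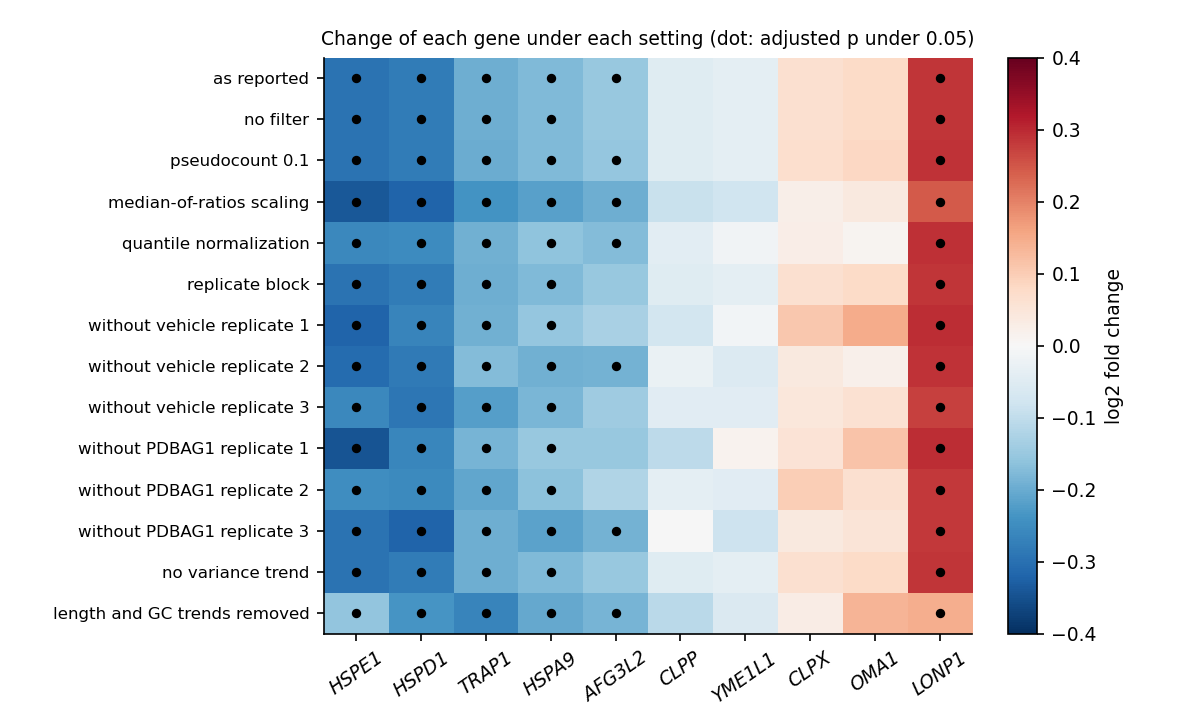
Log2 fold change of each gene (columns) under each setting (rows), coloured from -0.4 in blue to 0.4 in red, with a black dot where the limma adjusted p was under 0.05. HSPE1, HSPD1, TRAP1, HSPA9 and LONP1 carry a dot in every row, AFG3L2 in 7 of 14 rows and the other 4 genes in none.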

How the data were processed

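RNA-seq libraries of MDA-MB-231 cells treated with vehicle or PDBAG1 were grouped by their titles. The authors mapped clean reads with HISAT2 and describe FPKM, whereas the deposited values are TPM per gene, rounded to 2 decimals. The submitters' processing notes name HISAT2 2.0.4, Bowtie2 2.2.5, RSEM 1.2.12 and GRCh38.p12. The methods give GRCh38.p13 and the BGISEQ-500 platform, while the labels mention Illumina library protocols. The annotation, strand setting and any scaling between libraries are not given in the sources used here. TPM keeps no depth, so no counting error can be given.

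Genes that reached 1 TPM in no fewer than 3 libraries entered the test, on log2(TPM + 1) with limma 3.58.1 in R 4.3.3 (lmFit, eBayes with a variance trend), with Benjamini-Hochberg adjustment over all 12582 genes tested. Calls were made at an adjusted p under 0.05, and the study's 1.5-fold limit was counted beside it. This scale understates changes of low genes. Means are given ± SD over 3 libraries. The steps were tested on simulated data. Ratios were tested by exact permutation in scipy 1.17.1.

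The genes and lists were chosen with earlier results of these data known. Named were the 10 genes, fixed partners (GRPEL1, DNAJA3, SPG7, OPA1, DELE1, HTRA2, PHB2, ATF4, ATF5, DDIT3, C1QBP) and up to 3 called rises and 3 called falls per list. HSPE1-MOB4 was named after its values were seen. DCN and FGF21 were not analysed here. Gene positions are from GENCODE v44, matched by Ensembl identifier, and promoter letters from RefSeq, for 8 of the 10 genes.

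Alternatives were no expression filter, a pseudocount of 0.1, median-of-ratios scaling, quantile normalization, the replicate number as a block, each library left out and no variance trend. Removal of length and GC trends and 3 of the 8 ratios were added after the data were seen.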

Additional observations from a re-analysis of the deposited data

How the results depend on the processing

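The number of chaperone and protease genes called stayed at 5 or 6 in each of the 13 alternatives, AFG3L2 being the gene lost, and 0 passed the 1.5-fold limit in any of them. With each library left out in turn, 5 to 6 of the 10 genes and 3532 to 4649 of all genes were called. With a replicate block, 5 of the 10 genes and 3951 of all genes were called, against 6 and 4736 without it, the calls of AFG3L2, SPG7, METAP1D and ATF5 were lost and HSPE1-MOB4 gained one. The numbers have no stated origin, and the deviations of libraries sharing a number were not aligned (correlations across genes of -0.21, 0.01 and -0.08). The scalings moved the median of all genes from 0.03 to -0.01 and -0.02, under 0.1. YME1L1, not called in any setting, changed sign without PDBAG1 replicate 1 (log2 fold change 0.02), and the uncalled values of GRPEL1, OPA1, DELE1, DDIT3 and MOB4 also crossed 0 in some settings. Removal of length and GC trends moved HSPE1 from -0.30 to -0.16 and LONP1 from 0.29 to 0.15. Quantile normalization moved the log2 difference of the OMA1/YME1L1 ratio from 0.12 to 0.03. The co-chaperone calls rose from 2 to 4 under quantile normalization and with length and GC trends removed. The cause was not tested for any of these. TPM gives no depth, so precision rests on 3 libraries per group.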

Other observations

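The libraries of a group differed in ways that the comparison does not use. HSPD1, HSPA9, CLPX, YME1L1, OMA1 and AFG3L2 were highest in vehicle replicate 1 among the vehicle libraries and in PDBAG1 replicate 3 among the PDBAG1 libraries. HSPE1, TRAP1 and CLPP were highest in other libraries of both groups, and LONP1 was highest in vehicle replicate 1 and PDBAG1 replicate 2. Of all genes tested, 39.6% were likewise highest in vehicle replicate 1 and PDBAG1 replicate 3, so the pattern is common among genes and nothing particular to these 10 is read from it. Vehicle replicate 1 held the highest vehicle value of 60.6% of genes and PDBAG1 replicate 3 the highest PDBAG1 value of 54.6%. Leaving out vehicle replicate 1 gave a log2 fold change of 0.15 for OMA1 and leaving out PDBAG1 replicate 3 gave -0.08 for YME1L1, neither called.

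The spans of other genes overlap several of the 10 genes in GENCODE v44, though shared exons were not checked. On the opposite strand these include TUBB6 with AFG3L2, MASTL with YME1L1, RPL36 with LONP1 and DNASE1 with TRAP1. HSPD1 and HSPE1 also overlap each other on opposite strands, and HSPE1-MOB4 and MOB4 overlap HSPD1 likewise. On the same strand, DAB1 overlaps OMA1, SNORD63 and SNORD63B overlap HSPA9, and ENSG00000263235 overlaps TRAP1. There a strand setting would not separate reads. Whether strand was used in counting is not stated, so reads from any of these overlaps cannot be told apart here. MOB4, which shares the readthrough transcript with HSPE1, had a vehicle mean of 37.5 ± 2.12 TPM and a PDBAG1 mean of 38.7 ± 4.46 TPM (limma log2 change 0.04, 95% interval -0.12 to 0.21).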
